A study of Mus musculus with 191 samples.

Results

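The lungs of female B6C3F1 mice gavaged with 1,2,3-trichloropropane (TCPN in the labels) were compared with those of corn oil controls. The comparison comprised the 4 arrays with TCPN in the title out of 133 arrays of exposed animals and 58 of controls in the series, chosen by that label alone. The TCPN mice had received 60 mg/kg in corn oil. The other chemical groups compared in detail below are 1,4-dichlorobenzene (DCBZ, 600 mg/kg in corn oil, 4 arrays) and 1,2-dibromoethane (DBET, 62 mg/kg in corn oil, 4 arrays). The control sets CCO5 and CCO6, of 5 arrays each, were given corn oil alone and carry the same array batch tag as TCPN and DCBZ. DBET carries another batch tag, together with its own corn oil sets CCO2 and CCO3 of 4 arrays each. In every one of these groups gavage was at 5 ml/kg on 5 days per week for 13 weeks, the mice were 5 weeks old at the start and 18 weeks old at collection, and the right lung lobe was hybridised to an Affymetrix mouse expression array, with 1 animal per array. The series as a whole concerns 26 chemicals in 34 exposed groups and 14 control sets, and its title concerns the prediction of lung tumours. The labels do not say which of CCO5 and CCO6 was run beside TCPN, so TCPN was set against both. Every array had a mean of 0.00027 in TCPN and CCO6 and of -0.00024 in CCO5 and DCBZ. Animal numbers ran from 162 to 165 in TCPN, 171 to 175 in CCO6, 51 to 55 in CCO5 and 41 to 45 in DCBZ. By these values TCPN goes with CCO6 and DCBZ with CCO5, and what lies behind that grouping was not tested.

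1,2,3-Trichloropropane is a chlorinated solvent and a contaminant of drinking water that causes tumours at several sites in rodents. It is oxidised by cytochrome P450 enzymes and conjugated to glutathione by glutathione S-transferases, and some of its glutathione conjugates rearrange to reactive ions that bind DNA. Damaged DNA activates the transcription factor p53, which raises genes that halt the cell cycle and repair DNA. In the mouse airway the club cells carry most of the P450 activity and are a common site of injury by chemicals that need activation.

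The markers given for this comparison are Ces1g, Gsto1, Ptgs2 and Ccng1, which were chosen with earlier results of these data known. For Ccng1, a p53 target, and Gsto1, a glutathione transferase, the RefSeq promoter is printed 5′ to 3′ from 250 bases before the transcription start to 50 bases from it (build GRCm38.p6). The Ccng1 window lies on the minus strand at chr11:40755237-40755536 and the Gsto1 window on the plus strand at chr19:47854723-47855022. Capitals mark the match to the p53 half-site.
Ccng1: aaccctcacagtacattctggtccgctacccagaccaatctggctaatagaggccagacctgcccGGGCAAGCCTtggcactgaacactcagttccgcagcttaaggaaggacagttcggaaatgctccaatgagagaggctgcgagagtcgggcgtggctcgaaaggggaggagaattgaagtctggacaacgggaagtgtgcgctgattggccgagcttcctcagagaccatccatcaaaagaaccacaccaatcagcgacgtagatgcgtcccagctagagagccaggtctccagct
Gsto1: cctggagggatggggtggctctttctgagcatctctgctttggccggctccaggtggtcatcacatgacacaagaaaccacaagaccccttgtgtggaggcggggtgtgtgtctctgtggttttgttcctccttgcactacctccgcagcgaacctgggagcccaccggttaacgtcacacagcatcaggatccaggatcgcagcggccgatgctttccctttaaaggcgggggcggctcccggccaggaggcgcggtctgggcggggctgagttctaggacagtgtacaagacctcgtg
The windows were searched on both strands for the p53 half-site and for TGACNNNGC, the core of the antioxidant response element bound by NRF2. The Ccng1 window held 1 half-site, 185 bases upstream of the start, and no antioxidant response element core. The Gsto1 window held neither, and neither did the windows of Ces1g and Ptgs2. Of 32851 mouse promoters in the same table, 8.36% held a half-site and 12.4% the antioxidant response element core. The p53 target list described below had 38 promoters for 29 of its genes, and 10 of the 38 held a half-site. A match describes the letters only.

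Values are deposited on a log scale that is taken as log2, since the labels name neither the base nor the normalization, and every fold rests on that base. Each array is centred near 0, so a value is a level relative to the array's mean. Of 18194 genes, 13524 passed a filter on low values and were tested with limma. A gene is said to have risen or fallen where its Benjamini-Hochberg adjusted p over all tested genes was under 0.05 in the same direction against CCO5 and against CCO6. The log2 fold change is TCPN minus the equal-weight mean of both sets, given ± its standard error, and the adjusted p is the larger of the 2.

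The arrays differed between the groups in ways that touch every result below. The SD over all probe sets of an array was 1.33 to 1.38 in TCPN, against 1.16 to 1.40 in CCO5 and 1.07 to 1.39 in CCO6, and averaged 1.36 ± 0.022 in TCPN (SD, n = 4) and 1.23 ± 0.104 in both sets together (SD, n = 10). That difference had a two-sided exact permutation p of 0.036 over arrays, and 0.079 against either set alone. The median array SD of TCPN, 1.37, was the highest of all groups of the series. RNA integrity numbers were 9.4 to 9.6 in TCPN, 6.7 to 7.5 in CCO5 and 8.4 to 8.8 in CCO6, with 1 array of each control set carrying none. The beta-actin 3′ minus 5′ value, which is larger in more degraded RNA, was 0.631 ± 0.0682 in TCPN (SD, n = 4) and 0.565 ± 0.134 in controls (SD, n = 10; two-sided exact permutation p = 0.384). Of the 10 control arrays, 6 (CCO5 replicates 1, 2, 3 and 5 and CCO6 replicates 2 and 3) carry an r after the animal number, whose meaning the labels do not state. Lung identity was in place: the TCPN arrays had 6.83 to 7.02 for the club cell secretoglobin Scgb1a1, 6.80 to 6.99 for the surfactant protein gene Sftpc, 6.46 to 6.79 for the alveolar type 1 gene Ager and 2.94 to 3.55 for the endothelial cadherin gene Cdh5. Between the control sets themselves limma called 0 genes in either direction, with 394 at an unadjusted p under 0.05.

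TCPN lungs had 1045 genes higher (7.73% of those tested) and 222 lower (1.64%). The balance between rises and falls depended on the scale of the arrays. On the deposited values 82.5% of the calls were rises, but 40.8% after quantile normalization, with 84 genes higher (0.621%) and 122 lower (0.902%). When each array was divided by its own SD the share of rises was 54.5%, with 281 genes higher and 235 lower. Over all genes tested the log2 fold change had a median of 0.07 on the deposited values, -0.05 after quantile normalization and -0.01 after division by the SD. Nearly all falls were in genes of low level. When the genes were cut by mean level into 4 bins of 3381, from lowest to highest, the falls numbered 212, 7, 2 and 1 and the rises 133, 307, 350 and 255. All 4 TCPN arrays lay above all 10 control arrays for 579 genes, of which 465 were called, and below all of them for 48 genes.

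Single arrays carried much of these counts. Without CCO6 replicate 4 there were 116 rises and 16 falls. Leaving out CCO6 replicate 1 gave 587 and 96, CCO5 replicate 5 gave 622 and 126, and TCPN replicates 1, 2, 3 and 4 in turn gave 446 and 66, 527 and 83, 644 and 96, and 591 and 168. The falls numbered 137 without CCO6 replicate 2, 129 without CCO6 replicate 3 and 464 without CCO6 replicate 5. Fitted to the TCPN, CCO5 and CCO6 arrays alone, with no spread borrowed from the rest of the series, 14 genes rose and 0 fell by limma, with 239 lower at an unadjusted p under 0.05. Without the 6 control arrays marked r, 10 rose and 4 fell. With the RNA integrity number as a covariate, in a fit that drops the arrays without one, 1837 rose and 226 fell.

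**Figure D1:**
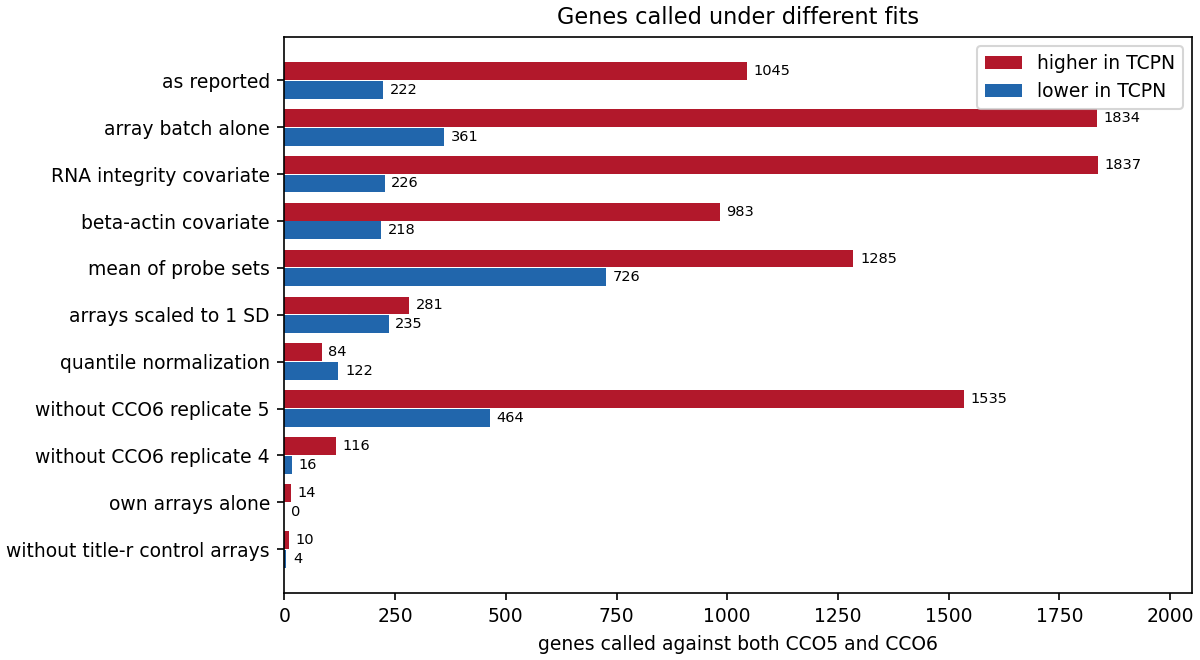
Numbers of genes called higher and lower in TCPN lungs than in both corn oil sets under 11 fits (bars, number of genes). On the deposited values 1045 were higher and 222 lower; quantile normalization gave 84 and 122, and the groups' own arrays alone 14 and 0.

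Because the counts move so far, the genes called in all of 17 fits were taken as the ones to describe in detail, a rule chosen after the data were seen. The 17 fits are the deposited values, quantile normalization, division by the SD and the 14 fits that leave out 1 array each. They left 46 rises (0.34% of genes tested) and 5 falls (0.037%). The rule does not include the fit to the groups' own arrays, which called 10 of the 46, nor the fit without the control arrays marked r, which called 7. None of the 5 falls was called by limma in either, with the smallest adjusted p at 0.15 and 0.35. All 4 given markers are among the rises, with the arachidonate genes Pla2g4a and Acsl4, the airway genes Cxcl17, Upk3a and Cdhr3, the cytokinesis genes Ect2 and Anln and the peptide hormone gene Ghrl. The 46 log2 fold changes ran from 0.28 to 1.35. For 39 of the 46 all TCPN arrays lay above all control arrays, as they did for 579 of all 13524 genes tested. The 46 were chosen by their values in these same arrays, so this count carries no test.

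Ces1g encodes a carboxylesterase that hydrolyses esters and lipids and had the largest rise among genes with regular symbols. Its level was 1.24, 0.70, 1.06 and 0.72 in the 4 TCPN arrays. In CCO5 it was -0.64, -0.34, -0.56, -0.29 and -0.30, and in CCO6 -0.53, -0.48, -0.72, -0.45 and 0.10. Every TCPN array lay above every control array, and the closest control was CCO6 replicate 5. The log2 fold change was 1.35 ± 0.14 (adjusted p = 6.24e-11), which is 2.55-fold, and 1.25 to 1.43 with each array left out. Ces1g was called in each alternative named above, including the groups' own arrays alone and the fit without the arrays marked r.

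Ptgs2 encodes cyclooxygenase 2, the inducible enzyme that turns arachidonic acid into prostaglandin H2. It had 1.04, 0.85, 1.40 and 1.27 in TCPN. It had 0.05, -0.61, -0.45, 0.24 and -0.52 in CCO5 and -0.09, 0.08, -0.23, -0.35 and 0.19 in CCO6. The groups did not overlap, and the lowest TCPN array stood well clear of the highest control. Ptgs2 rose by 1.31 ± 0.18 (adjusted p = 1.78e-05), or 2.47-fold, and its second probe set rose as well, by 0.71 ± 0.10. Without the arrays marked r the log2 fold change was 1.06 and no longer called (adjusted p = 0.25).

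Ccng1 encodes cyclin G1, which p53 induces and which feeds back on the p53 regulator MDM2. Its 4 TCPN arrays had 2.55, 2.53, 2.52 and 2.61. CCO5 had 1.72, 1.01, 1.21, 1.70 and 1.24, and CCO6 had 1.57, 1.72, 1.39, 0.84 and 1.97. The TCPN arrays were nearly equal and all above the controls, whose own values ranged widely. The log2 fold change was 1.11 ± 0.17 (adjusted p = 2.33e-04), or 2.16-fold, and both other probe sets of Ccng1 were called too, with 1.11 and 1.31. Ccng1 was not called with the groups' own arrays alone (adjusted p = 0.051) or without the arrays marked r, where the log2 fold change was 0.97 (adjusted p = 0.27).

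Gsto1 encodes glutathione transferase omega, which reduces rather than conjugates many of its substrates. It had 4.49, 4.79, 4.45 and 4.63 in TCPN. It had 2.98, 3.60, 3.79, 3.76 and 3.65 in CCO5 and 3.17, 3.27, 3.91, 3.73 and 3.64 in CCO6. TCPN again lay above both sets without overlap. Gsto1 rose by 1.04 ± 0.14 (adjusted p = 4.53e-06), or 2.06-fold, and its other probe set by 1.22. The log2 fold change was 0.59 when arrays were divided by their SD (adjusted p = 0.019), and 0.95 without the arrays marked r, where it was not called (adjusted p = 0.16).

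**Figure D2:**
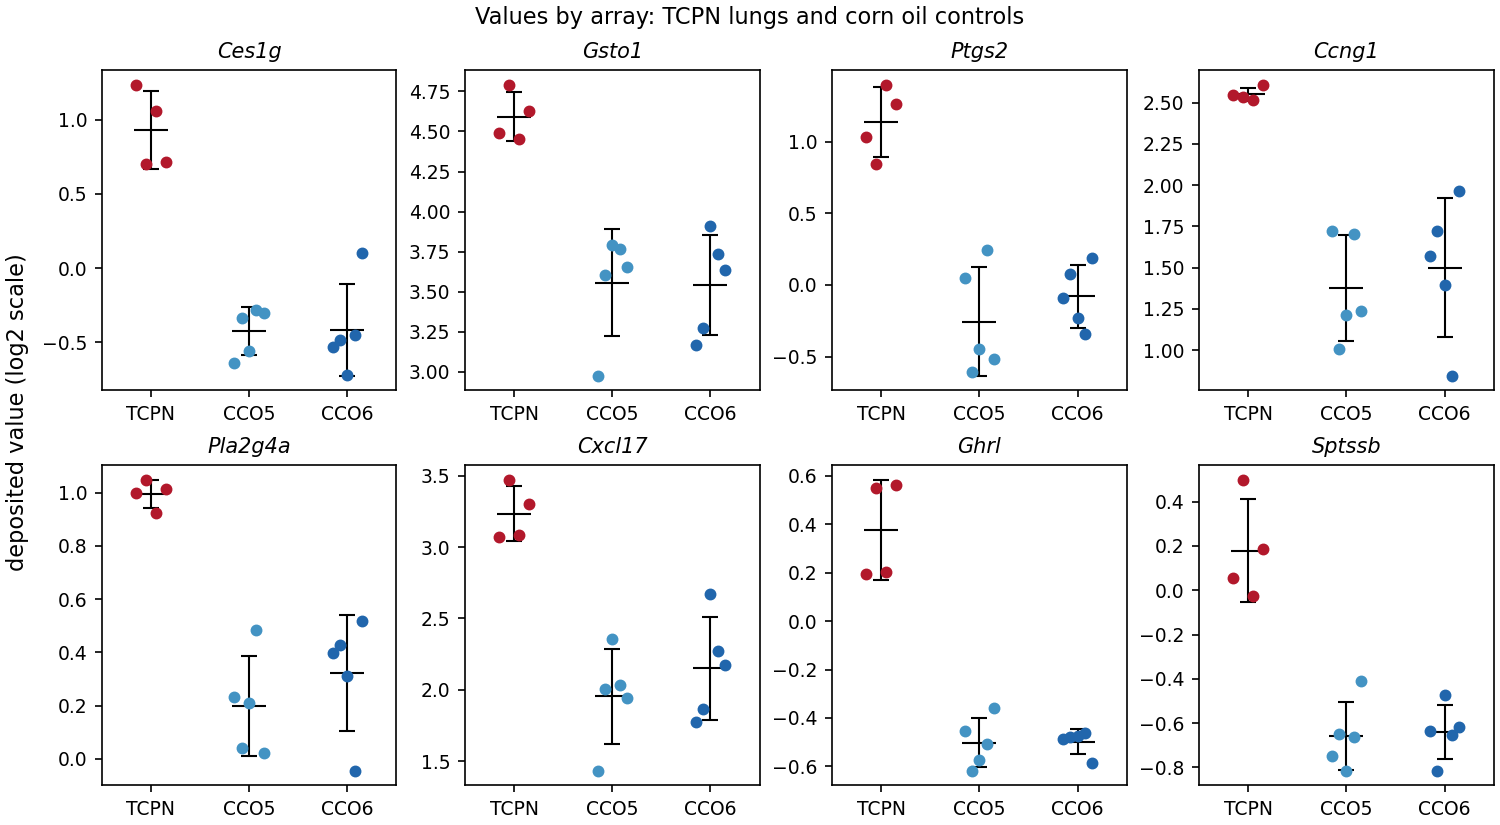
Levels (log2, centred per array) of 8 genes in each TCPN, CCO5 and CCO6 array, with 1 point per array and bars at the mean ± SD. In every panel the 4 TCPN points lie above all 10 control points, as for Ccng1 with 2.52 to 2.61 in TCPN against 0.84 to 1.97 in controls.

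Pla2g4a and Acsl4, which act on the substrate of Ptgs2, also rose. Pla2g4a, the cytosolic phospholipase A2 that frees arachidonic acid from membranes, had 1.00, 1.05, 0.92 and 1.01 in TCPN, against 0.02 to 0.49 in CCO5 and -0.04 to 0.52 in CCO6. It rose by 0.74 ± 0.12 (adjusted p = 0.0016), and was called with the groups' own arrays alone but not without the arrays marked r (0.61, adjusted p = 0.39). Acsl4, which couples arachidonic acid to coenzyme A, had 2.90, 2.84, 2.88 and 3.02 in TCPN, against 1.36 to 2.56 in CCO5 and 1.40 to 2.59 in CCO6. It rose by 1.06 ± 0.19 (adjusted p = 0.0024), and its other 2 probe sets rose by 0.74 and 0.72. It is in no list here, and was called neither with own arrays alone (adjusted p = 0.12) nor without the arrays marked r (0.65, adjusted p = 0.70). Both genes stood above all controls in all TCPN arrays.

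The rest of the prostaglandin and leukotriene list did not move as a group. Over all genes tested, the background for this and each later list set against controls, 7.73% rose and 1.64% fell. Of 24 tested enzymes and receptors 3 rose and 1 fell, with a median of 0.03, against 0.07 for all genes, and -0.07 after quantile normalization. The lipoxygenases Alox5, Alox12 and Alox15 and the prostaglandin E synthase Ptges were not called (0.02, 0.12, -0.13 and 0.02). The other rise was Ptgr1, a reductase that inactivates prostaglandins (0.45 ± 0.12), and the fall was Ptgir, the prostacyclin receptor (-0.24 ± 0.06). Ptgr1 kept its call in 8 of the 14 fits that leave out 1 array and Ptgir in 9. Their highest adjusted p was 0.11 each, without TCPN replicate 2 for Ptgr1 and without TCPN replicate 1 for Ptgir, and neither was called after quantile normalization. Immediate early genes, which respond to handling and acute stress and often move with Ptgs2, gave 0 calls among 29 by limma and 0 at an unadjusted p under 0.05. Their most distant members were the stress genes Gadd45b at 0.27 and Ier3 at -0.23.

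Among genes of chemical metabolism, glutathione S-transferases showed 5 rises and 0 falls among 21 tested, with a median of 0.12. There were 3 rises after quantile normalization and 1 after division by the SD. Besides Gsto1 they were led by Gsta2 (0.54 ± 0.13), Gsta4 (0.43 ± 0.12) and the microsomal enzyme Mgst1 (0.42 ± 0.11). Gsta2 had 1.34, 0.96, 1.22 and 0.93 in TCPN, against 0.02 to 1.03 in CCO5 and 0.34 to 0.77 in CCO6, so the groups touched. Leaving out single arrays kept 10 of 14 calls for Gsta2, 6 for Gsta4 and 9 for Mgst1, with the highest adjusted p at 0.080 without TCPN replicate 1 for Gsta2 and at 0.11 and 0.12 without CCO6 replicate 1 for Gsta4 and Mgst1. Dividing arrays by their SD turned Mgst1 to -0.12 (adjusted p = 0.71).

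Genes of glutathione synthesis and reduction and other targets of NRF2, the sensor of electrophiles, gave 5 rises and 0 falls among 35 tested. Their median was 0.18 on the deposited values and 0.00 after quantile normalization, where 1 of them was called higher. Division by the SD gave 1 higher and 1 lower. Gclc, the rate-limiting enzyme of glutathione synthesis, had 3.62, 3.35, 3.55 and 3.44 in TCPN, against 2.60 to 3.08 in CCO5 and 2.45 to 3.44 in CCO6, and rose by 0.63 ± 0.15 (adjusted p = 0.015). The malic enzyme Me1 rose by 0.43 ± 0.11 and the quinone reductase Nqo1 by 0.40 ± 0.10. Calls were kept in 10 of 14 fits for Gclc (highest adjusted p = 0.067, without CCO6 replicate 4), in 10 for Me1 (0.11, without CCO6 replicate 1) and in 13 for Nqo1 (0.057, without TCPN replicate 1). None of Gclc, Me1 and Nqo1 was called after quantile normalization.

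Carboxylesterases moved both ways, with 2 rises and 1 fall among 12 tested and a median of 0.07. After quantile normalization, and after division by the SD, 1 rose and 0 fell. Ces1d, a lipid hydrolase of the same family as Ces1g, rose by 0.35 ± 0.10, but was at -0.10 after division by the SD (adjusted p = 0.53), and Ces2b fell by 0.31 on the log2 scale. Ces1d kept 5 of 14 calls (highest adjusted p = 0.17, without CCO6 replicate 1) and Ces2b kept 10 (0.16, without CCO6 replicate 4). Of 23 P450s, epoxide hydrolases and related enzymes 3 rose and 0 fell (median 0.11), led by Cyp2s1, an airway P450, at 0.49 ± 0.11 and Ephx1, the microsomal epoxide hydrolase, at 0.47 ± 0.12. Cyp2s1 was called in 12 of 14 fits (0.057, without CCO5 replicate 1) and Ephx1 in 7 (0.11, without CCO6 replicate 1). Cyp2j6 was the other rise, at 0.18. After quantile normalization 0 of the 23 were called by limma, and after division by the SD 1 was higher and 2 lower. Of 6 tested targets of the aryl hydrocarbon receptor 1 rose, Nqo1.

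Aldehyde, alcohol and carbonyl dehydrogenases and reductases gave 5 rises and 0 falls among 32, with a median of 0.19. After quantile normalization 0 were called by limma (median 0.04), and after division by the SD 1 was higher and 3 lower (median 0.05). Akr1c14, a hydroxysteroid dehydrogenase of the aldo-keto reductase family, had 2.28, 1.66, 2.11 and 2.09 in TCPN, against -0.07 to 1.28 in CCO5 and 0.17 to 1.48 in CCO6. It rose by 1.24 ± 0.24 (adjusted p = 0.0087), without overlap, and kept its call in 13 of 14 fits (0.095, without CCO6 replicate 4). After quantile normalization its log2 fold change was 1.03 (adjusted p = 0.060). The aldehyde dehydrogenases Aldh6a1 (0.46 ± 0.13), Aldh3b1 (0.41 ± 0.09) and Aldh3a2 (0.33 ± 0.08) rose less.

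Of 33 tested p53 targets 9 rose and 0 fell, with a median of 0.15, or 0.03 after quantile normalization, where 2 were called higher. Division by the SD gave 5 higher and 0 lower. Ccng1 and Ddit4l were the members called in all 17 fits. Ddit4l, an inhibitor of the growth kinase mTOR, had 0.25, 0.33, 0.27 and 0.26 in TCPN, against -0.29 to 0.10 in CCO5 and -0.21 to -0.02 in CCO6, and rose by 0.35 ± 0.06 (adjusted p = 5.81e-04). Its groups did not overlap, and it was called neither with own arrays alone (adjusted p = 0.075) nor without the arrays marked r (0.50). Trp53inp1, which promotes p53-driven death and autophagy, had 2.52, 2.37, 2.35 and 2.39 in TCPN, against 1.49 to 2.20 in CCO5 and 1.16 to 2.12 in CCO6, and rose by 0.61 ± 0.17 (adjusted p = 0.032). The p53-inducible ribonucleotide reductase subunit Rrm2b had 1.34, 1.20, 1.26 and 1.32 in TCPN, against 0.51 to 1.16 in CCO5 and 0.29 to 1.13 in CCO6, and rose by 0.48 ± 0.12 (adjusted p = 0.011). These 2 genes also showed no overlap between TCPN and controls. Each had another probe set that rose, by 0.35 for Trp53inp1 and 0.77 for Rrm2b. The remaining probe sets of Rrm2b, of low level, were not called (-0.03 and -0.10).

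Other p53 targets rose by less or did not pass. Mdm2, the ubiquitin ligase that degrades p53, rose by 0.30 ± 0.10 with an adjusted p of 0.0498. Another Mdm2 probe set rose by 0.51 and a further probe set, of low level, fell, with -0.23. The cell cycle inhibitor Cdkn1a was at 0.05 ± 0.21 (adjusted p = 0.94) and the apoptosis regulator Phlda3 at 0.13 ± 0.12 (adjusted p = 0.55). Trp53inp1 kept 6 of 14 calls, Rrm2b 13 and Mdm2 3, with highest adjusted p of 0.16 and 0.13 without CCO6 replicate 4 for Trp53inp1 and Rrm2b and 0.26 without CCO5 replicate 5 for Mdm2, and none of these 3 was called after quantile normalization. Of 36 DNA repair genes 3 rose (8.33%, near the 7.73% of all genes tested) and 0 fell. Their median was 0.08, against 0.07 for all genes, so the list did not stand out. After quantile normalization limma called 0 of them, and after division by the SD 2 rose. The 3 on the deposited values were the damage kinase Atr (0.47 ± 0.14), the mismatch repair gene Msh6 (0.41 ± 0.09) and the translesion polymerase Polk (0.38 ± 0.10). They kept their calls in 6, 13 and 12 of 14 fits. Without CCO6 replicate 4 their adjusted p was 0.17, 0.078 and 0.12. The other probe sets of Atr were not called (0.11 and 0.14), while that of Polk rose by 0.17.

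Airway epithelial genes rose in part. Of 20 club cell markers 4 rose and 0 fell, with a median of 0.31, or 0.18 after quantile normalization, where 2 were called higher. Division by the SD gave 3 rises and a median of 0.04. Cxcl17, a chemokine of mucosal surfaces, had 3.07, 3.47, 3.08 and 3.30 in TCPN. It had 1.44, 2.01, 2.36, 2.04 and 1.94 in CCO5 and 1.77, 1.86, 2.67, 2.27 and 2.17 in CCO6. Its groups did not overlap, and it rose by 1.18 ± 0.18 (adjusted p = 3.24e-04), but was not called without the arrays marked r (1.18, adjusted p = 0.072). Upk3a, a uroplakin found in a subset of club cells near neuroendocrine bodies, had -0.07, 0.26, 0.01 and 0.21 in TCPN, against -0.61 to -0.34 in CCO5 and -0.59 to -0.28 in CCO6, and rose by 0.55 ± 0.07 (adjusted p = 1.78e-05). Aoc1, the diamine oxidase that degrades histamine, rose by 0.68 ± 0.15 (adjusted p = 0.0081), called in all 14 fits without 1 array but not after quantile normalization (adjusted p = 0.075).

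The retinal dehydrogenase gene Aldh1a1 was the other club cell rise, at 0.29 ± 0.09. It kept 3 of 14 calls (highest adjusted p = 0.22, without CCO6 replicate 1) and was at -0.30 after division by the SD (adjusted p = 0.23). The mean level of the club cell list was 3.27 to 3.81 in TCPN, 2.47 to 3.69 in CCO5 and 2.94 to 3.70 in CCO6. In these bulk samples more or fewer cells of a type and more or less RNA per cell cannot be told apart.

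Ciliated cell markers gave 4 rises and 0 falls among 17, with a median of 0.32, or 0.14 after quantile normalization, where none was called by limma, and 3 rises after division by the SD. The 4 were Mlf1 (0.76 ± 0.16), Foxj1, the master regulator of motile cilia (0.56 ± 0.14), Ccdc39 (0.53) and the radial spoke gene Rsph4a (0.51). Another Ccdc39 probe set, of low level, fell, with -0.30, and a further probe set of similar level was not called. Foxj1 had 1.47, 2.10, 2.26 and 1.70 in TCPN, against 0.67 to 1.73 in CCO5 and 1.11 to 1.56 in CCO6, so its lowest 2 TCPN arrays overlapped CCO5. Mlf1 kept 13 of 14 calls (0.067, without CCO6 replicate 4) and Foxj1 9 (0.14, without TCPN replicate 3). The mean level of the list was 1.10 to 1.39 in TCPN, 0.67 to 1.16 in CCO5 and 0.79 to 1.03 in CCO6. Cdhr3, a cadherin of ciliated cells outside this list, had 1.16, 1.25, 1.20 and 1.23 in TCPN, against 0.36 to 0.98 in CCO5 and 0.50 to 0.84 in CCO6, rose by 0.59 ± 0.10 and was called in all 17 fits, but not with own arrays alone (adjusted p = 0.075) or without the arrays marked r (0.63).

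Cell division genes gave 7 rises and 0 falls among 27, with a median of 0.21, or 0.12 after quantile normalization, where none was called by limma, and 5 rises after division by the SD. Top2a, the topoisomerase of dividing cells, had 0.12, 0.27, 0.46 and 0.42 in TCPN, against -0.51 to -0.06 in CCO5 and -0.41 to 0.07 in CCO6, and rose by 0.56 ± 0.12 (adjusted p = 0.0074). Its other 2 probe sets were not called (-0.14 and 0.02). The ribonucleotide reductase subunit Rrm2 rose by 0.51 ± 0.11, the mitotic kinase Cdk1 by 0.50 ± 0.13 and the replication helicase subunit Mcm6 by 0.46 ± 0.08. Of the other probe sets of Mcm6, 1 rose by 0.29 and 1 of lower level fell, with -0.25. Top2a, Rrm2 and Mcm6 were called with each array left out, and Cdk1 in 7 of 14 fits (0.095, without CCO6 replicate 4).

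Among cytokinesis genes outside that list, Ect2, which activates RhoA at the cleavage furrow, had -0.38, -0.37, -0.28 and -0.24 in TCPN, against -1.14 to -0.81 in CCO5 and -0.94 to -0.69 in CCO6. It rose by 0.57 ± 0.08 (adjusted p = 2.97e-05) and was called in all 17 fits, with the groups' own arrays alone and without the arrays marked r. The scaffold gene Anln had 0.05, -0.04, 0.14 and 0.21 in TCPN, against -0.48 to -0.19 in CCO5 and -0.41 to -0.13 in CCO6, and rose by 0.41 ± 0.08 (adjusted p = 0.0033), while its second probe set was at -0.04. Anln was not called with own arrays alone (adjusted p = 0.075). Both genes lay above all control arrays.

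Other rises called in all 17 fits were of varied function and were chosen after their values were seen. Ghrl, which encodes the peptide hormone ghrelin, had 0.20, 0.55, 0.20 and 0.56 in TCPN. It had -0.45, -0.62, -0.57, -0.51 and -0.36 in CCO5 and -0.49, -0.48, -0.47, -0.46 and -0.59 in CCO6. The control arrays were tightly grouped, and Ghrl rose by 0.88 ± 0.06 (adjusted p = 8.56e-21). Sptssb, a small subunit of the enzyme that starts sphingolipid synthesis, had 0.05, 0.50, -0.03 and 0.19 in TCPN, against -0.81 to -0.41 in CCO5 and -0.81 to -0.47 in CCO6, and rose by 0.83 ± 0.10 (adjusted p = 1.60e-08). Both were also called with the groups' own arrays alone and without the arrays marked r. The organic anion transporter Slco4c1 (0.93 ± 0.16), the membrane-curving endocytosis gene Fcho2 (1.16 ± 0.22), the potassium channel gene Kcnj15 (0.74 ± 0.13), the AMPK catalytic subunit gene Prkaa1 (0.56 ± 0.10), its partner Fnip1 (0.82 ± 0.15) and the Wnt inhibitor gene Wif1 (0.48 ± 0.10) also rose. None of these 6 was called by limma with own arrays alone (adjusted p from 0.075 to 0.15) or without the arrays marked r (0.34 to 0.82). The protease inhibitor gene Wfdc3 rose by 0.52 ± 0.05 (adjusted p = 1.06e-12) and was called in both.

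Several of the 12 largest rises were not called without CCO6 replicate 4, a fit in which 116 of all genes rose in place of 1045. The mitochondrially encoded complex I gene ND5 (1.26 ± 0.28), the amino acid transporter gene Slc6a14 (1.17 ± 0.22), the chaperone gene Hsp90aa1 (1.15 ± 0.24), Sh3bgrl (1.14 ± 0.23), the nuclear exporter gene Xpo1 (1.14 ± 0.22) and the calpain inhibitor gene Cast (1.09 ± 0.26) all lost their call without CCO6 replicate 4. Their adjusted p was then 0.15, 0.11, 0.055, 0.053, 0.060 and 0.17. Slc6a14, Hsp90aa1, Sh3bgrl and Xpo1 were called in the other 13 fits, ND5 in 10 and Cast in 9. ND5 had 3.83 to 4.11 in TCPN, against 1.41 to 3.74 in CCO5 and 2.17 to 3.58 in CCO6. The TCPN arrays of Hsp90aa1 and Cast overlapped the controls and those of the other 4 did not. Of the 6 only Xpo1 was called after quantile normalization (0.90, adjusted p = 0.048).

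Stress, clock and synthesis lists held scattered rises. Of 18 heat shock genes 2 rose and 0 fell (median 0.36), Hsp90aa1 and the chaperone Hspa4l (1.00 ± 0.24). Of 23 genes of endoplasmic reticulum stress 2 rose (8.70%, near the 7.73% of all genes), the chaperone Hsp90b1 (1.05 ± 0.20) and the serine synthesis gene Psat1 (0.29). Hsp90b1 was called with each array left out and after quantile normalization but not after division by the SD (adjusted p = 0.070). Clock genes gave 3 rises and 0 falls among 20 (median 0.23), namely the repressor Nr1d2 (1.05 ± 0.30), Clock (0.64 ± 0.13) and Noct (0.40). The other probe sets of Clock were not called (0.13 to 0.19), while the second of Nr1d2 rose by 0.41. Times of collection are not labelled. Of 20 glucocorticoid-responsive genes and metallothioneins 1 rose, Mt1 (0.67 ± 0.16), and of 22 sterol and fatty acid synthesis genes 3 rose, Msmo1 (0.56 ± 0.14), Idi1 (0.51 ± 0.13) and the desaturase Scd1 (0.49 ± 0.12).

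Without CCO6 replicate 4 the calls of Hspa4l (adjusted p = 0.073), Nr1d2 (0.10), Clock (0.095), Mt1 (0.058), Idi1 (0.15) and Scd1 (0.083) were lost, and Msmo1 was lost without TCPN replicate 2 (0.14). Scd1 was at -0.05 after division by the SD (adjusted p = 0.95). After quantile normalization limma called 0 rises in the heat shock, clock, glucocorticoid and sterol lists. After division by the SD Hspa4l was the 1 rise in all 5 lists. Both settings gave 1 fall in the glucocorticoid list. Of 22 nuclear RNA and splicing genes 5 rose and 0 fell, with the highest median of these lists, 0.48, or 0.28 after quantile normalization. Limma called 0 of them after quantile normalization, and 0 higher and 1 lower after division by the SD. The 5 were led by Luc7l3 (0.85 ± 0.23), Srsf11 (0.70 ± 0.21), Tra2a (0.63 ± 0.17) and Rbm25 (0.62). Other Tra2a probe sets, of low level, fell by 0.33 and 0.25 on the log2 scale, and the rest of them were not called. The other probe sets of Srsf11 were not called (0.14 to 0.30). Luc7l3 and Rbm25 each had another probe set that rose (0.49 and 0.73) and further ones not called. Luc7l3 kept 7 of 14 calls, Srsf11 4 and Tra2a 7, with adjusted p of 0.16, 0.23 and 0.14 without CCO6 replicate 4. Every TCPN array had a higher RNA integrity number than any control array that carries one, and its part in these rises was not tested beyond the covariate fit above.

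The falls were small. The 12 largest among named genes ran from -0.95 to -0.31, and the largest, in the membrane tether gene Vapb (-0.95 ± 0.18), was seen on 1 of its 3 probe sets, the others being at -0.01 and -0.10, and was lost without CCO6 replicate 4 (adjusted p = 0.067). Cyp2b13, a P450, had -1.18, -1.39, -0.98 and -1.18 in TCPN, against -0.88 to -0.38 in CCO5 and -1.03 to -0.25 in CCO6. It fell by 0.50 on the log2 scale (adjusted p = 3.67e-04), kept with each array left out, but not after quantile normalization (adjusted p = 0.056). Clec3b, the plasminogen-binding tetranectin, had 1.06, 0.78, 1.06 and 1.03 in TCPN, against 1.07 to 1.59 in CCO5 and 1.21 to 1.61 in CCO6, and fell by 0.42 (adjusted p = 0.034), or by 0.59 after quantile normalization (adjusted p = 0.0025). It was not called without TCPN replicate 2 (adjusted p = 0.16). The B cell chemokine receptor gene Cxcr5 fell by 0.33 (adjusted p = 0.048) and kept 4 of 14 calls (0.13, without TCPN replicate 3), and the splicing factor gene U2af1 fell by 0.37 and kept 8 (0.10, without CCO6 replicate 4). Lrp2bp, Krt25, Gpr50 and Spag4 fell by 0.31 to 0.35 and each lost its call without CCO6 replicate 4. The T cell adaptor gene Skap1 fell by 0.35 (adjusted p = 0.019) without overlap, and kept 10 of 14 calls (0.071, without TCPN replicate 1).

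The 5 falls called in all 17 fits were the transcriptional coactivator gene Cited4 (-0.33 ± 0.06), the substance P precursor gene Tac1 (-0.30 ± 0.06), the gut-homing chemokine receptor gene Ccr9 (-0.29 ± 0.05), 4933411E08Rik (-0.28 ± 0.05) and Cd1d2, a lipid-presenting molecule (-0.26 ± 0.04). Cd1d2 had -0.76, -0.81, -0.68 and -0.66 in TCPN, against -0.55 to -0.34 in CCO5 and -0.63 to -0.44 in CCO6, and was the only one of the 5 whose groups did not overlap. All 5 lay below the mean of the array in every TCPN array.

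In the next 5 lists, of other cells and the interferon response, 5.56% to 10.0% of the members rose, near the 7.73% of all genes tested. Alveolar type 2 cells gave 1 rise among 14, the complement gene Hc (0.59 ± 0.15), and alveolar type 1 cells 1 among 10, Akap5 (0.67 ± 0.16). Their medians, 0.20 and 0.27, turned to -0.27 and -0.19 when arrays were divided by their SD. Endothelium gave 1 rise among 18, Calcrl (0.66 ± 0.17), macrophages 1 among 16, the mannose receptor Mrc1 (0.83 ± 0.19), and the interferon response 1 among 18, Ifit2 (0.54 ± 0.15). All 5 genes lost their call without CCO6 replicate 4, with adjusted p from 0.13 to 0.19, and after quantile normalization. Division by the SD gave 5 falls and 0 rises among the endothelial markers, and 1 fall and 0 rises in each of the alveolar type 2, alveolar type 1 and macrophage lists.

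The following lists gave 0 calls by limma, with the number at an unadjusted p under 0.05 after each. They were smooth muscle and matrix (22 genes, 1), neutrophils and acute inflammation (16, 1), T and NK cells (18, 1), B and plasma cells (14, 1), MHC class II (9, 0), erythroid cells (5, 0), cardiac muscle (20, 0), adipose tissue (11, 0) and the respiratory chain (30, 1). Division by the SD gave 3 falls in the respiratory chain and 1 each in the matrix, MHC class II and erythroid lists. B cell markers had a median of -0.20, and their mean level was -0.19 to 0.05 in TCPN, -0.01 to 0.51 in CCO5 and 0.01 to 0.44 in CCO6. The IgM heavy chain gene Ighm was at -1.24 ± 0.57 (adjusted p = 0.22). Another Ighm probe set of similar level was at -0.38 ± 0.37 and not called. The rest, of lower level, ran from -0.29 to -0.05, and of these only the one at -0.29 was called. Cardiac muscle markers had a median of -0.28, with mean levels of 0.16 to 0.72 in TCPN, 0.21 to 1.55 in CCO5 and 0.28 to 1.29 in CCO6. Of 11 skeletal muscle markers 2 fell, the myosin Myh4 (-0.26 ± 0.06) and Myoz1 (-0.18 ± 0.05), at mean levels of the list of -0.73 to -0.62 in TCPN, -0.64 to -0.37 in CCO5 and -0.69 to -0.37 in CCO6. Myh4 kept 13 of 14 calls and Myoz1 2, with adjusted p of 0.081 and 0.16 without CCO6 replicate 4, and neither was called after quantile normalization or division by the SD. The part of these other tissues in the results above was not tested.

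**Figure D3:**
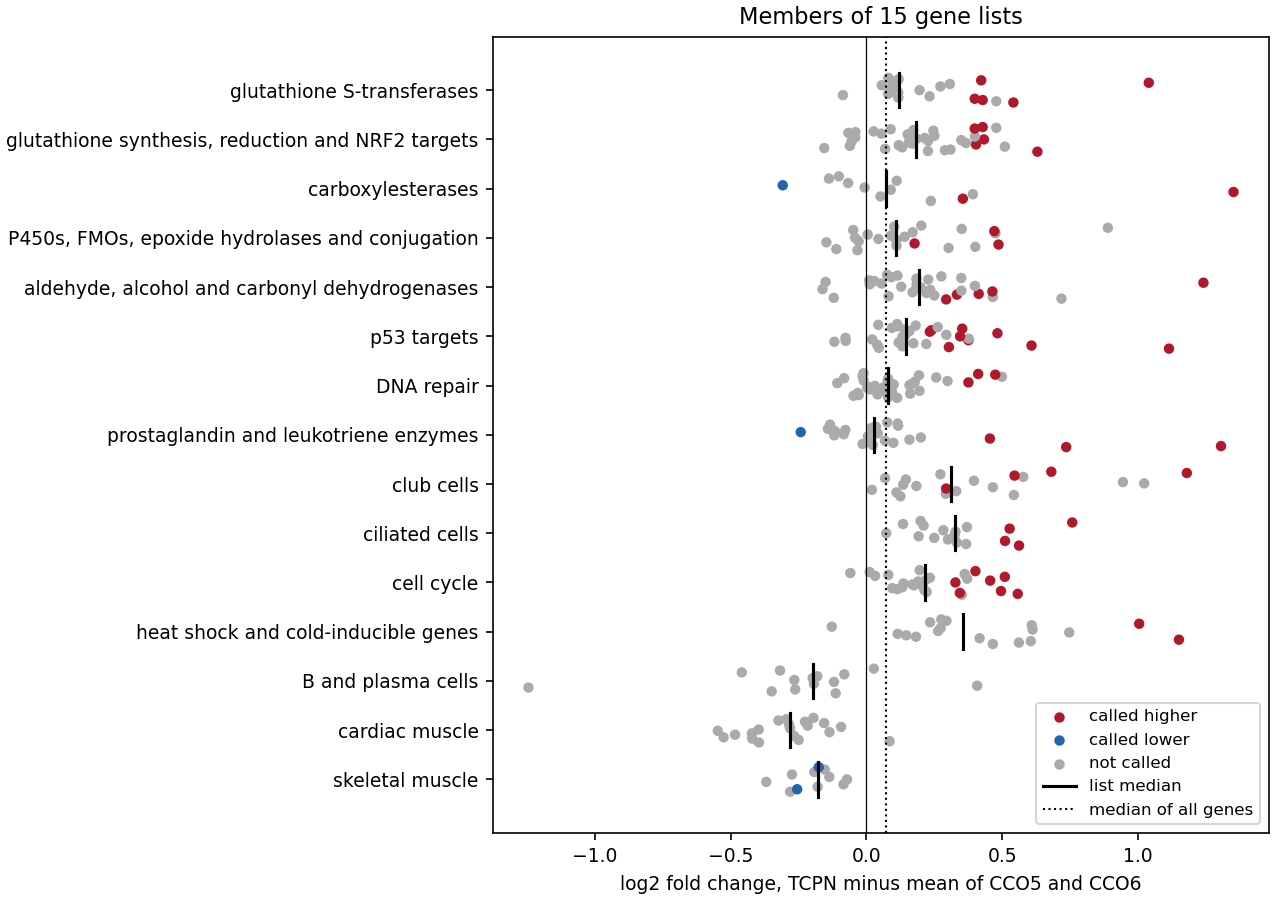
Log2 fold change of TCPN against the mean of CCO5 and CCO6 for each tested member of 15 gene lists (points, coloured by call), with each list's median and, dotted, the median of all genes at 0.07. The rises of the p53, club cell, ciliated cell and cell cycle lists are a minority of their members, at 9 of 33, 4 of 20, 4 of 17 and 7 of 27.

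Set beside the other 33 exposed groups of the series, each against its own control sets, TCPN had the highest log2 fold change of Ptgs2, Ccng1, Gsto1, Pla2g4a and Ect2. This is a description, since control sets, batches, routes and doses differ. The ranks are on the deposited values, where TCPN also had the highest median array SD of all groups. For Ptgs2 the next highest group was naphthalene inhaled at 30 ppm with 0.89, and the median of the other groups was 0.15. For Ccng1 it was MACR, given in water by gavage at 50 mg/kg, with 0.80 and a median of 0.09. For Gsto1 naphthalene at 30 ppm was next, with 1.03, close to the 1.04 of TCPN, and for Pla2g4a it was DBET with 0.52. The Gsto1 value of TCPN was 0.59 after division by the SD, a scale on which the groups were not ranked. TCPN ranked 5 of 34 for Ces1g, which was called higher in 12 of the 34 groups and reached 2.82 in NAPD. It ranked 4 for Cxcl17 and for Ghrl, whose highest values were 1.52 in DBET and 1.56 in naphthalene at 30 ppm. Of the 46 rises called in all 17 fits 38 were highest in TCPN, against 1176 of all genes tested (8.70%); the 46 were chosen by their values in TCPN, so this share carries no test.

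**Figure D4:**
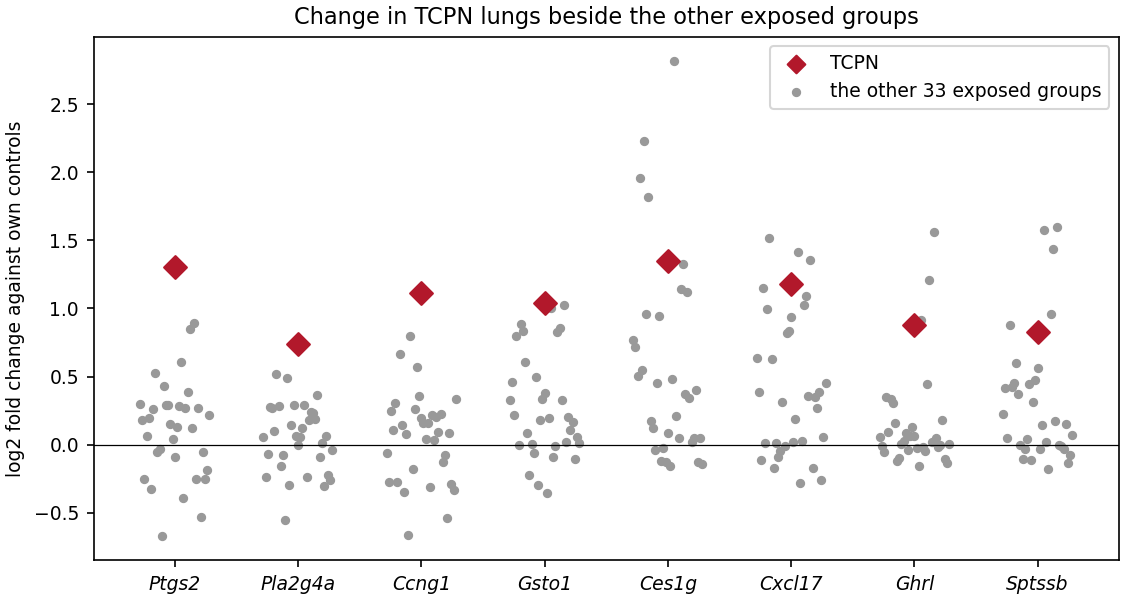
Log2 fold change of 8 genes in TCPN (diamond) and in the other 33 exposed groups (points), each against its own control sets on the deposited values. TCPN lies at the top for Ptgs2 (1.31), Ccng1 (1.11), Gsto1 (1.04) and Pla2g4a (0.74), and below other groups for Ces1g, Cxcl17, Ghrl and Sptssb.

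DCBZ is the other chemical given by gavage in corn oil in the same array batch. It is an aromatic ring with 2 chlorines, whereas TCPN is a saturated chain with 3. Its dose was 600 mg/kg against 60 mg/kg for TCPN, so chemical and dose cannot be told apart. Both were set against the same controls, and the direct contrast subtracts none of these, though they enter its estimate of spread. Array means were 0.00027 in TCPN and CCO6 and -0.00024 in DCBZ and CCO5. Any difference that goes with these means stays in the direct contrast and cannot be told apart from chemical and dose. In it 626 genes were higher in TCPN (4.63%) and 692 lower (5.12%), of which 46 (0.34%) and 78 (0.577%) were called in all of 11 fits, namely the deposited values, quantile normalization, division by the SD and 8 fits leaving out 1 array each. Without DCBZ replicate 2 there were 113 higher and 160 lower, and without TCPN replicates 1, 2 and 3 in turn 214 and 317, 207 and 275, and 269 and 405. RNA integrity numbers were 9.4 to 9.6 in TCPN and 7.8 to 8.8 in DCBZ, with 1 missing, and with that number as a covariate 194 were higher and 176 lower.

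Ccng1 differed most clearly among the markers. It had 2.55, 2.53, 2.52 and 2.61 in TCPN, against 1.69, 1.07, 2.11 and 1.46 in DCBZ. The groups did not overlap, and the difference was 0.97 ± 0.20 (95% interval 0.56 to 1.37, adjusted p = 0.0015), called in all 11 fits. Against controls Ccng1 was at 0.15 ± 0.17 in DCBZ. Ptgs2 had 1.04, 0.85, 1.40 and 1.27 in TCPN, against 0.08, -0.29, 1.09 and 0.54 in DCBZ, with 1 DCBZ array inside the TCPN range. Its difference was 0.78 ± 0.21 (0.36 to 1.20, adjusted p = 0.012), kept in 6 of 8 fits without 1 array and not called after quantile normalization or division by the SD.

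The other markers did not pass between the 2 chemicals. For Gsto1 the difference was 0.43 ± 0.17 (0.09 to 0.77, adjusted p = 0.082). Ces1g had 1.24, 0.70, 1.06 and 0.72 in TCPN, against 1.10, 1.06, 1.72 and 1.71 in DCBZ, a difference of -0.47 ± 0.17 (-0.80 to -0.14, adjusted p = 0.052). Here the higher mean was in DCBZ. Neither interval holds 0, and neither adjusted p passed over all genes. Cxcl17 differed by 0.55 ± 0.21 (0.12 to 0.97, adjusted p = 0.078), and Ghrl by 0.72 ± 0.07 (adjusted p = 2.05e-13), called in all 11 fits.

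Nqo1 separated the chemicals in the opposite direction to Ccng1. It had 0.33, 0.14, 0.15 and 0.10 in TCPN, against 0.81, 0.75, 0.87 and 0.76 in DCBZ, without overlap, a difference of -0.62 ± 0.12 (adjusted p = 2.70e-04) called in all 11 fits. Of the glutathione and NRF2 list 0 were higher and 3 lower in TCPN than in DCBZ, and of carboxylesterases 0 and 2, among them Ces1f (-0.60 ± 0.16, adjusted p = 0.0096), which was not called with the RNA integrity number as a covariate. Of p53 targets 7 of 33 were higher in TCPN and 0 lower, and of cell cycle genes 7 of 27 and 0. Alveolar type 2 markers gave 5 of 14 higher and 0 lower, and alveolar type 1 markers 3 of 10 and 0. All these list counts rest on the deposited values, where the median array SD was 1.37 in TCPN and 1.25 in DCBZ. Over all genes, quantile normalization cut the 626 calls higher in TCPN to 90, and division by the SD cut them to 128. The 692 calls lower in TCPN became 230 and 291. No list was counted against DCBZ on those scales, so the part of array spread in the list counts was not tested. Over all genes 4.63% were higher and 5.12% lower in this contrast. The median over all genes was 0.11, and -0.01 after quantile normalization.

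The largest differences included genes typical of mesothelium and liver. Malat1, a nuclear long noncoding RNA, had 2.67, 2.02, 2.38 and 2.39 in TCPN, against 1.28, 0.04, 1.36 and 0.43 in DCBZ. The controls had 1.36 to 2.53, so that on this probe set DCBZ was the group apart from them. The difference between TCPN and DCBZ was 1.59 ± 0.23 (adjusted p = 5.09e-07). A second Malat1 probe set of nearly equal level rose in TCPN against controls, by 0.90 ± 0.28 (limma adjusted p = 0.025). Its other probe sets ran from 0.08 to 0.88 against controls and were not called. Msln, the mesothelial surface protein, had 2.22, 2.03, 1.95 and 2.03 in TCPN, against 1.03, 0.89, 0.11 and 0.40 in DCBZ, a difference of 1.45 ± 0.28 (adjusted p = 4.12e-04). The mesothelial genes Upk3b and Bnc1 had 2.92 to 3.11 and 0.01 to 0.27 in TCPN, against 0.89 to 2.47 and -1.08 to -0.58 in DCBZ. The controls spanned 1.00 to 3.48 for Upk3b in CCO5 and 2.07 to 2.91 in CCO6. Gdpd2, a glycerophosphodiesterase gene, was lower in TCPN by 0.78 ± 0.14 (adjusted p = 9.12e-05).

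Bhmt, Fga and Cyp3a11 are liver genes. Bhmt differed by 1.58 ± 0.38 (adjusted p = 0.0047, kept in 7 of 8 fits), Fga by 1.55 ± 0.44 (0.016, 3 of 8) and Cyp3a11 by 1.35 ± 0.46 (0.047, 2 of 8). The liver gene albumin (Alb) varied in every group, with 1.95 to 3.08 in TCPN, 0.65 to 3.17 in DCBZ, 0.84 to 2.52 in CCO5 and 1.68 to 3.36 in CCO6. Any part of liver RNA in these 3 differences was not tested. Of the other genes lower in TCPN, the neutrophil chemokine Cxcl5 had -1.35, -0.70, -0.87 and -0.98 in TCPN, against -0.03, 0.08, 0.06 and -0.28 in DCBZ, a difference of -0.93 ± 0.25 (adjusted p = 0.013, kept in 6 of 8 fits). The asialoglycoprotein receptor gene Asgr1, also of liver, differed by -0.58 ± 0.15 (0.010, 6 of 8).

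**Figure D5:**
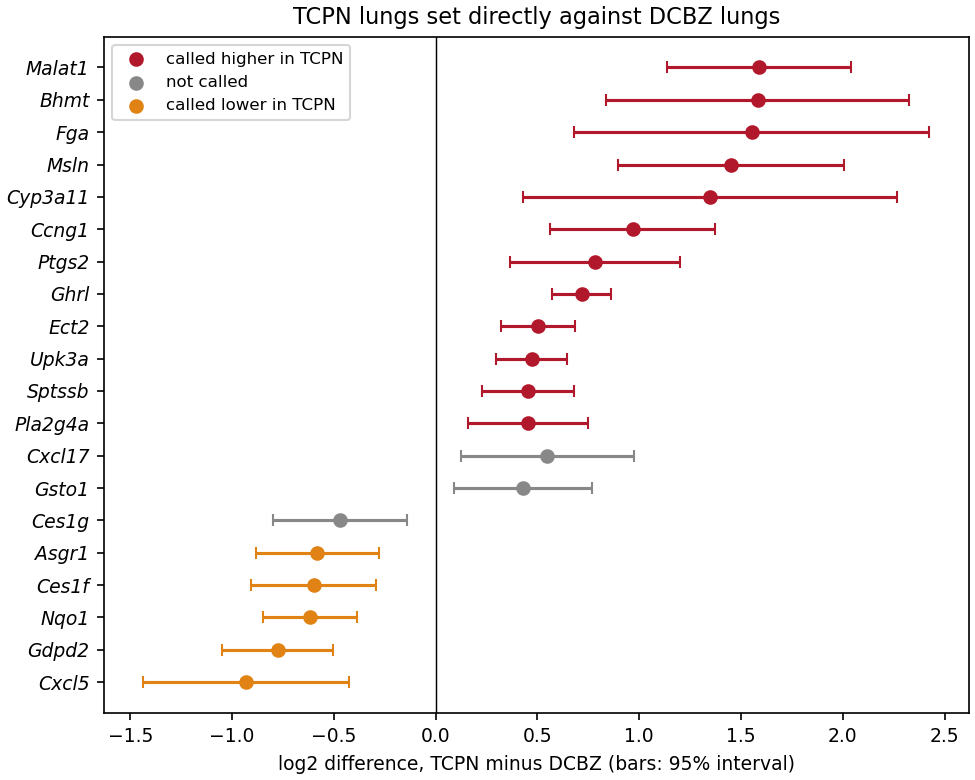
Difference TCPN minus DCBZ (log2) with its 95% interval for 20 genes, among them the largest differences in each direction and the given markers. Ccng1 (0.56 to 1.37) and Ptgs2 (0.36 to 1.20) lie above 0, and Nqo1 and Ces1g below it.

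DBET, like TCPN a short halogenated alkane that is conjugated to glutathione, was hybridised under another batch tag and set against CCO2 and CCO3, so its values are given beside those of TCPN with no test between them. Its dose of 62 mg/kg was near the 60 mg/kg of TCPN. Cxcl17 was at 1.18 ± 0.18 in TCPN and 1.52 ± 0.19 in DBET, and Gsto1 at 1.04 ± 0.14 and 0.84 ± 0.15. Ces1g was at 1.35 ± 0.14 in TCPN and 0.96 ± 0.14 in DBET, and Ccng1 at 1.11 ± 0.17 and 0.67 ± 0.18. Pla2g4a was at 0.74 ± 0.12 in TCPN and 0.52 ± 0.13 in DBET, and these 5 genes rose in both groups against their own controls. Ptgs2 was at 1.31 ± 0.18 in TCPN, where it was called, and at 0.26 ± 0.18 in DBET, where it was not (adjusted p = 0.86), a difference that was not tested.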

How the data were processed

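Per the labels' protocols, lung was kept in RNAlater, RNA was extracted with Trizol and purified with RNeasy, and each animal had 1 array. The deposited values are log2 values as taken here, with neither the base nor the normalization given in the sources used here. They ran from -2.33 to 8.14, and array means from -0.00269 to 0.00334, so the authors' values are centred but not brought to 1 spread. Of 45101 probe sets 34958 had 1 gene symbol, 932 several and 9211 none in the platform annotation, and 34754 were matched to current symbols. Where a gene had several probe sets, the one of highest mean stood for it, which gave 18194 genes. Genes with at least 3 arrays above the median of all values (-0.386) were tested, which left 13524.

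Groups follow the titles. A group-means model over all arrays of the series was fitted with limma 3.58.1 (R 4.3.3), with Benjamini-Hochberg adjustment and a threshold of 0.05. Array-level measures were compared by exact permutation (scipy 1.17.1). The number of arrays, 4 to 5 per group, limits the precision. On simulated data of 13524 genes the calls recovered 80% of 100 genes shifted by 0.5 and 97% of 100 shifted by 1, with 0 others called. The simulated noise was normal and independent between genes, with no differences in spread between arrays and no outlying arrays. It therefore does not show how many calls on the real arrays are false.

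The markers and the 34 gene lists were chosen with earlier results of these data known. The text names the markers, the 12 largest rises and falls with regular symbols, up to 4 called members of each list, or its 2 most distant members where none was called, and the 5 largest differences from DCBZ each way. These are 107 genes, and other named genes were chosen after their values were seen. Alternatives were quantile normalization, no filter, the mean of a gene's probe sets, subsets of arrays, CCO5 or CCO6 alone or merged, RNA integrity number or beta-actin as covariates and each array left out. Division by the array SD was added after seeing the data.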

Additional observations from a re-analysis of the deposited data

Results flagged for a closer look

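Within the TCPN, CCO5 and CCO6 groups, the highest or lowest array of 31 out of 511 gene and group combinations (6.07%) stood apart from the others by Dixon's criterion, which chance meets in about 1 of 20. In TCPN, the acute phase gene Saa1 was at 3.47 in replicate 2 and at -1.22 to -0.67 in the others. Replicate 2 was also apart for Clec3b (0.776), Tra2a (1.90) and Cyp1a1 (0.0824). TCPN replicate 3 was apart for Cdkn1a (2.96) and Hs6st2 (-0.390), replicate 4 for Fga (-0.132) and Mtm1 (0.599), and replicate 1 for Sln (-0.00239), a sarcoplasmic reticulum gene of atrial muscle at 0.88 to 1.00 in the other TCPN arrays.

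In CCO5, replicate 1 was apart for Gsto1 (2.98), Nr1d2 (2.11) and 6820431F20Rik (0.689), and replicate 2 for Bnc1 (0.128). Replicate 3 was apart for Aoc1 (0.541) and, at the low end, for the liver genes Bhmt (-1.26), Fga (-1.65), Cyp3a11 (-0.929) and Ttr (-0.344). Replicate 4 was apart for Gpr50 (-1.04), Spag4 (-0.808), Cyp2j6 (-0.140), Aldh6a1 (2.30) and Myoz1 (-0.189), and replicate 5 for H2-Oa (0.855). In CCO6, replicate 5 was the array apart in every case, for Lrp2bp (-1.17), Slc4a1 (-0.249), Myh4 (-0.819), Hspa4l (1.39), Tra2a (2.42), Ghrl (-0.586) and 4933411E08Rik (-0.808).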

How the results depend on the processing

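The count of 1045 rises became 14 with the groups' own arrays, 1834 with the batch alone, 84 after quantile normalization, 1783 against CCO5 alone, 2426 with both sets merged, 1837 with the RNA integrity covariate, 10 without the arrays marked r and 281 after division by the SD, and 116 to 1535 with each array left out. The 222 falls became 0, 361 and 122 under the first 3 of these, 2915 without the filter, 726 with the mean of probe sets, 646 against CCO5 alone, 772 with merged sets and 4 without the arrays marked r, and 16 to 464 with each array left out. Between TCPN and DCBZ, 626 higher genes became 362 with own arrays, 1755 with the batch alone, 90 after quantile normalization, 1082 without the filter, 194 with the RNA integrity covariate and 128 after division by the SD, and 113 to 868 with each array left out. The 692 lower genes became 50, 230, 3003, 176 and 291 with own arrays, quantile normalization, no filter, that covariate and division by the SD, 1097 with the mean of probe sets, and 160 to 757 with each array left out. Division by the SD turned Mgst1 (-0.12), Ces1d (-0.10), Aldh1a1 (-0.30) and Scd1 (-0.054), the fit without arrays marked r turned Cyp2j6 (-0.0026), and leaving out TCPN replicate 2 turned Saa1, which ran from -0.084 to 1.48 with each array left out. The cause of these changes was not tested, except that no filter adds genes and subsets of arrays remove them. Of 121 called named genes 58 kept their call after quantile normalization, 69 after division by the SD, 11 with own arrays and 9 without arrays marked r, where CCO5 is left with 1 array that is assumed to vary like the other groups. No paired analysis was possible because the labels give the arrays animal numbers only and no replicate numbers shared between groups. Signals near or below the array mean are dim, and no background measure was used here.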

Other observations

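Saa1, a serum amyloid gene of the acute phase response, passed the test against controls (1.04, adjusted p = 0.0074) through 1 animal. It had -1.22, 3.47, -0.67 and -1.17 in TCPN, against -1.12 to -0.80 in CCO5 and -1.05 to -0.71 in CCO6, and without TCPN replicate 2 it was at -0.08 (adjusted p = 0.81). The neutrophil genes Lcn2 and S100a9, at 0.49 and 0.31 over all TCPN arrays, were not called.

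Genes typical of liver and mesothelium varied between animals of every group, and the origin of their RNA was not tested. The transthyretin gene Ttr had 1.07 to 2.39 in TCPN, -0.40 to 2.45 in DCBZ, -0.34 to 1.48 in CCO5 and 0.64 to 2.60 in CCO6. The apolipoprotein gene Apoa1 had 0.35 to 1.74 in TCPN, -0.29 to 2.28 in DCBZ, -0.33 to 1.53 in CCO5 and 0.58 to 2.73 in CCO6. The mesothelial transcription factor gene Wt1 had -0.49 to -0.35 in TCPN, -0.93 to -0.61 in DCBZ, -0.78 to -0.19 in CCO5 and -0.70 to -0.40 in CCO6.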
